A study of Mus musculus with 2 samples.

Results

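Metallothionein and antioxidant genes were followed through single-cell libraries of sorted endothelial cells from mouse embryos. There are 9 such genes, Mt1, Mt2, Hmox1, Blvrb, Nqo1, Txnrd1, Prdx1, Mgst3 and Selenbp1, out of the 27998 genes in the count matrix. They were chosen by name, with earlier results of these data known, because several of them mark the cells of the mutant library. The difference between the libraries in these genes is therefore given as a description, and no test was made of it.

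The study compared embryos with and without the kinase gene Mekk3 (Map3k3) in the Tie2 lineage, in cells of the dorsal aorta and the umbilical and vitelline arteries. The control library came from C57BL/6J embryos of genotype Mekk3 fl/fl and Mekk3 fl/+ at embryonic day 9.5, with no Cre given in its label. The mutant library came from C57BL/6J embryos of genotype Mekk3 fl/-; Tie2Cre+, titled embryonic day 9.5 but with a stage label of 9.7. Tie2-driven Cre acts in endothelial cells and in much of the blood lineage, so it is no purely endothelial deletion. Both libraries were sorted as Ter119- CD41lo/- CD31+CD144+ ESAM+ and made with 10x 3′ v3 chemistry, and the number of embryos behind each was not analysed here. The sexes of the embryos are not in the labels. Y-linked UMIs were found in 1570 of 6107 control endothelial-like cells (25.7%) and in 0 of 2935 mutant ones, which allows a share of cells with such a UMI of up to 0.102%. Xist, transcribed from the inactive X chromosome of females, had a UMI in 44.5% and 74.8% of them. With 1 library per group, genotype, stage, sex and library cannot be told apart, and no p-value is given.

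The control library held 6675 cells with a median of 7566 UMIs (unique molecular identifiers, each 1 counted transcript molecule), and the mutant library 3242 cells with a median of 5647. Clusters with endothelial markers, called endothelial-like here, made up 6107 control cells (91.5%, 56122121 UMIs) and 2935 mutant cells (90.5%, 19601948 UMIs). Cells in which hemoglobin genes gave at least 5% of the UMIs were set apart as hemoglobin-rich. Map3k3 itself was at 9.37 and 10.6 UMIs per 1000000 UMIs (CPM) in control and mutant endothelial-like cells. The 3′ tag reads the end of the transcript, and whether it lies outside the deleted exons is not given in the labels, so this level is no check of the deletion. Intervals below are exact 95% intervals for counting error only, and they carry no spread between embryos.

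The 9 genes belong to linked parts of cell defence. Metallothioneins are small cysteine-rich proteins that bind zinc and copper, and the factor MTF1 turns on their genes through metal response elements when zinc rises. Heme oxygenase 1 (Hmox1) opens the heme ring to biliverdin, and Blvrb is named as a biliverdin reductase. Nqo1, a quinone reductase, Txnrd1, the cytosolic thioredoxin reductase, and Hmox1 are textbook targets of the stress factor NRF2, while Prdx1 breaks down peroxides with electrons from thioredoxin. Mgst3 is a membrane-bound glutathione transferase and peroxidase, and Selenbp1 encodes a selenium-binding protein with methanethiol oxidase activity.

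Mt1 (ENSMUSG00000031765) and Mt2 (ENSMUSG00000031762) are neighbours on chromosome 8, and in GRCm38 with GENCODE annotation they span 94179082 to 94180327 and 94172664 to 94173568, both on the plus strand. Their promoters are shown because both genes were higher in the mutant and are read by the same metal-sensing factor, and the promoter of Selenbp1 because it had the largest ratio of the genes with enough UMIs for one. Of the 9 genes, 8 had RefSeq promoter windows (GRCm38.p6, 250 bases before to 50 after the annotated start); Hmox1 was not matched. The 250 bases before the start are printed on the plus strand, chr8:94178839-94179088 for Mt1, chr8:94172368-94172617 for Mt2 and chr3:94932833-94933082 for Selenbp1. Capitals mark metal response element letters (TGCGCNC or TGCACNC) in the metallothionein genes and hypoxia response core letters (ACGTG or GCGTG) in Selenbp1, with matches on the minus strand shown as their reverse complement.
Mt1: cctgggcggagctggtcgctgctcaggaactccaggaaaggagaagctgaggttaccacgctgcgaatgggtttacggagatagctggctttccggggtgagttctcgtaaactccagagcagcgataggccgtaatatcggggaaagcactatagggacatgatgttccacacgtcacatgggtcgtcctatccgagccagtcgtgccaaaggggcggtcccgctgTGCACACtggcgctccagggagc
Mt2: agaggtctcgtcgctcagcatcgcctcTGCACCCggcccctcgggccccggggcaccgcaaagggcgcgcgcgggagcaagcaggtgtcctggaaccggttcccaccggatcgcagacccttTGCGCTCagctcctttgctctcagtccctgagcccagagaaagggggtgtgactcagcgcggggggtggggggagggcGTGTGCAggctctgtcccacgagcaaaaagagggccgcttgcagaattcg
Selenbp1: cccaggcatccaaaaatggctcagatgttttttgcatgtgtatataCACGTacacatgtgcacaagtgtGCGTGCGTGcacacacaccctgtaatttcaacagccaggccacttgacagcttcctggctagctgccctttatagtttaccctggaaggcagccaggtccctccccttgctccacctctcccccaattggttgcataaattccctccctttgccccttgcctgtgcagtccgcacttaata

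The 300-base window of Mt1 held 3 metal response element matches, 1 of them in the printed part and the others in or across the bases after the annotated start. Mt2 held 4, of which 3 are in the printed part. Both strands were searched. Of 32851 promoters of the same length, 15.4% held TGCGCNC and 12.6% held TGCACNC, 1.97% held at least 3 matches to either and 0.5175% at least 4. Selenbp1 held 2 matches to TGCACNC as well, and none of the other matched genes held either form. Its 3 hypoxia core matches, of which the neighbouring GCGTG copies share a base, compare with 8.93% of promoters that held at least 3. At least 1 such core is present in 43.8% of promoters, and Mt1 and Mt2 held 2 each, Mgst3 1, Blvrb 2 and 1 in its windows and Txnrd1 1 to 2, with none in Prdx1 and Nqo1. The antioxidant response core TGACNNNGC, present in 12.4% of promoters, was found in 1 window each of Mt2, Prdx1 and Txnrd1. These are letter matches in a short window, not shown to be bound.

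Mt1 and Mt2 transcripts were far denser in hemoglobin-rich cells than in any other class. The 15 control hemoglobin-rich cells (0.225% of the library) held 1524 of its 2697 Mt1 UMIs (56.5%) and 330 of its 357 Mt2 UMIs (92.4%). The 3 mutant hemoglobin-rich cells (0.0925%) held 830 of 2596 Mt1 UMIs (32.0%) and 92 of 164 Mt2 UMIs (56.1%). Levels taken over all cells therefore rest mostly on these few cells for Mt2 in both libraries and for Mt1 in the control library.

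**Figure D1:**
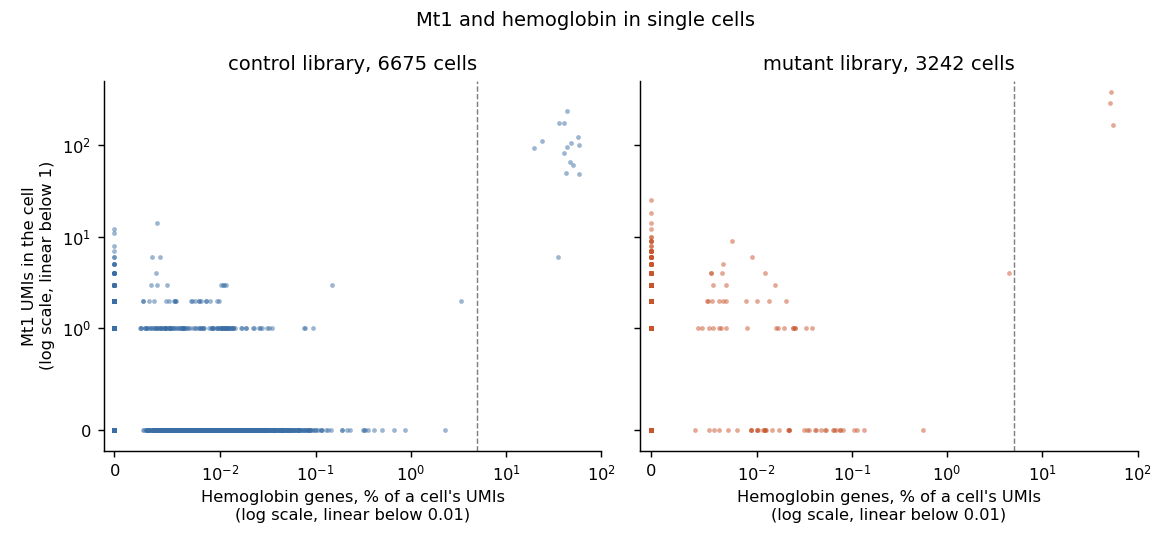
Mt1 UMIs of each cell against the percent of its UMIs on hemoglobin genes, 1 point per cell, control on the left and mutant on the right; both axes are log scales with a linear part near 0, and the dashed line marks 5%. Of the 15 control and 3 mutant cells to the right of the line, all but 1 shallow control cell of 650 UMIs, with 6 Mt1 UMIs, hold more Mt1 UMIs than any cell to its left.

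In these control cells Mt1 ran from 2438 to 11323 CPM with a median of 3636, and in the 3 mutant cells from 14296 to 16372 CPM with a median of 16327, so the 3 mutant cells lay above all 15 control cells. Mt2 ran from 327 to 2226 CPM (median 749) in control cells and from 1550 to 2481 CPM in mutant cells, and these ranges overlapped. The cells of 1 library are not replicates, and 3 cells give no estimate of a mutant level. These cells carried 18 (control) and 17 (mutant) of the 18 measured erythroid markers, and Cdh5, an endothelial cadherin, gave 14 UMIs in the control cells and 0 in the mutant ones, where 3 UMIs would be 56.3 CPM.

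Among the other genes, Mgst3 and Blvrb were also dense in hemoglobin-rich cells. Blvrb reached a median of 965 CPM in the control cells and 1290 CPM in the mutant ones, and Mgst3 1273 and 2349 CPM. As shares of the library, hemoglobin-rich cells held 17.4% of control and 5.25% of mutant Blvrb UMIs, and 14.01% and 12.4% of Mgst3 UMIs. Hmox1 was different: 50 UMIs came from 4 of the 15 control cells and none from the 3 mutant cells. Prdx1 was lower there than in endothelial-like cells, at a median of 882 and 900 CPM, and Txnrd1 and Selenbp1 gave 7 and 2 UMIs in the control cells and 0 and 1 in the mutant ones.

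Hemoglobin counted in endothelial-like cells measures how much RNA of red cells lies there. Endothelial-like cells held 1744 hemoglobin UMIs in the control library and 152 in the mutant library. At the ratio of Mt1 to hemoglobin seen in hemoglobin-rich cells, these would bring 17.6 of the 1054 Mt1 UMIs (1.67%) in control and 4.49 of the 1655 (0.272%) in mutant endothelial-like cells. For Mt2 the same reckoning gives 3.82 of 21 UMIs (18.2%) and 0.498 of 40 (1.25%), and for Blvrb and Mgst3 under 0.5% in both libraries. The ratio of Mt1 to Mt2 differed in the same way: it was 4.62 (4.10 to 5.22) and 9.02 (7.27 to 11.3) in control and mutant hemoglobin-rich cells, but 50.2 (32.7 to 81.4) and 41.4 (30.3 to 58.1) in endothelial-like cells. Endothelial-like cells thus carried Mt1 with very little Mt2. In cluster 13, of 173 control and 63 mutant non-endothelial cells described further on, the ratio was 7.20 (2.82 to 23.5) and 2.17 (1.06 to 4.71). Over their last 300 annotated bases Mt1 and Mt2 transcripts were identical at 65.7% of positions.

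Within endothelial-like cells 4 of the 9 genes were at least 2-fold higher in the mutant library (Mt1, Mt2, Blvrb and Selenbp1) and 1 at least 2-fold lower (Txnrd1). Nqo1 had too few UMIs for a ratio, and the rest lay in between. Of the 12919 genes with at least 20 UMIs over both libraries, 7.95% were at least 2-fold higher and 10.1% at least 2-fold lower. Because the genes were picked on this contrast, nothing is read from their number against that background. Hmox1, with a ratio of 1.94, lay just short of the 2-fold line and Blvrb, with 2.22, just past it.

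Mt1 was at 18.8 CPM (1054 UMIs) in control and 84.4 CPM (1655 UMIs) in mutant endothelial-like cells, a ratio of 4.50 (4.16 to 4.86). Taken over all cells the ratio was 2.72 (2.58 to 2.87), since the hemoglobin-rich cells weigh more in the control library. Mt2 was rare, with 21 UMIs (0.374 CPM) in control and 40 UMIs (2.04 CPM) in mutant cells, and its ratio of 5.45 (3.14 to 9.74) has a wide interval. Over all cells the Mt2 ratio was 1.30 (1.07 to 1.57), and over all but the hemoglobin-rich cells 7.51 (4.76 to 12.2), so for Mt2 18 cells in the 2 libraries set the value.

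**Figure D2:**
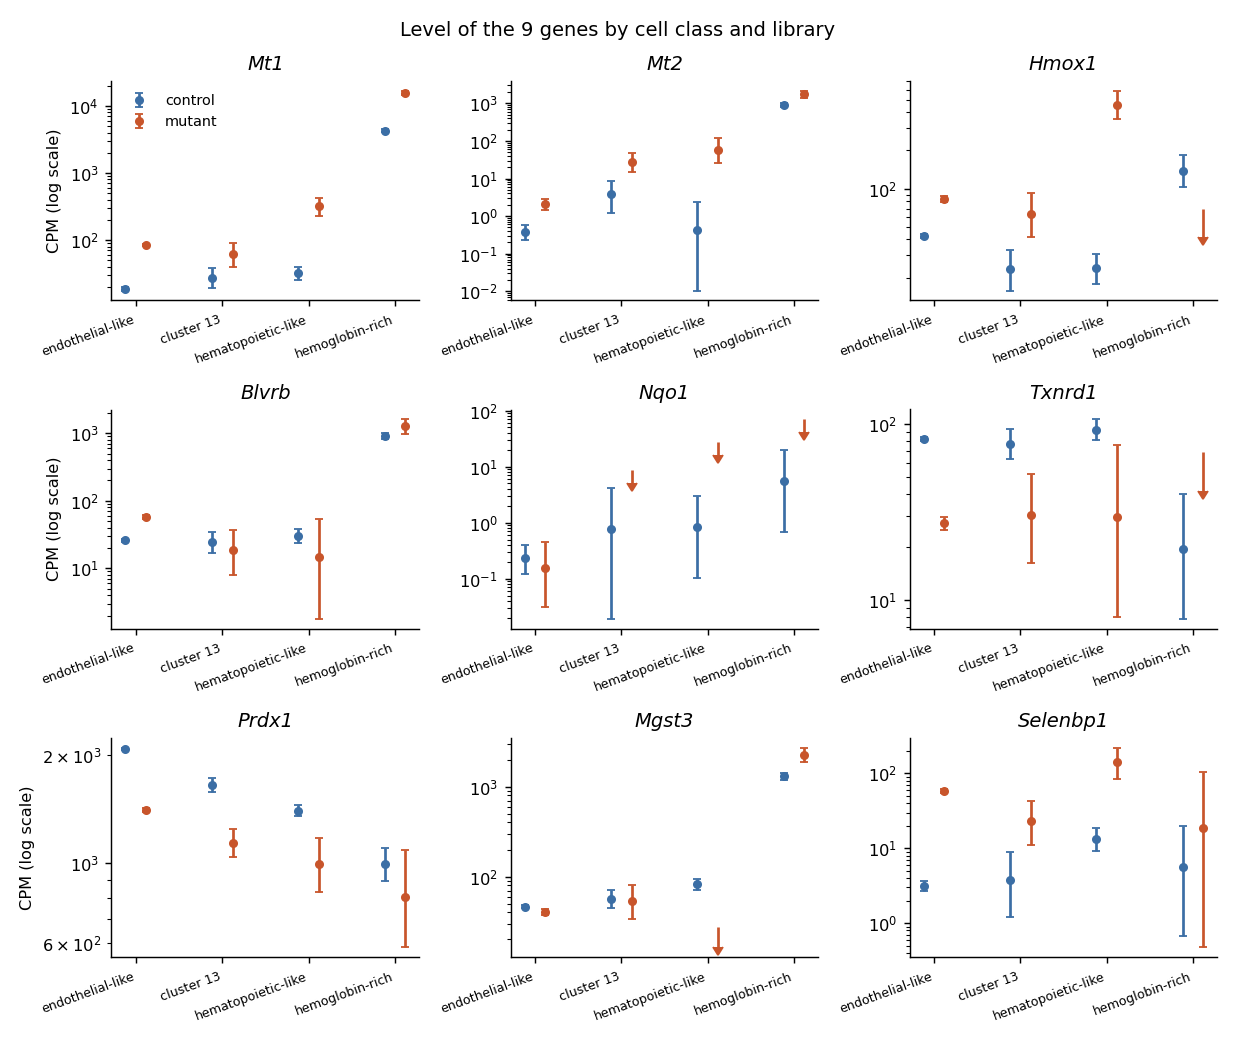
Level of each gene in CPM (log scales that differ between panels) in 3 cell classes and cluster 13 (cells with mesenchymal and neural leading genes), blue for control and orange for mutant, with exact 95% counting intervals; an arrow shows the upper bound where no UMI was counted. Mt1, Mt2, Blvrb and Mgst3 are highest in hemoglobin-rich cells, whereas Txnrd1 and Prdx1 are not.

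Hmox1 (ENSMUSG00000005413; chromosome 8, 75093621 to 75100589, plus strand) was at 42.7 CPM in control and 83.1 CPM in mutant endothelial-like cells, a ratio of 1.94 (1.82 to 2.07). Blvrb (ENSMUSG00000040466; chromosome 7, 27447978 to 27466144, plus strand) was at 25.9 and 57.5 CPM, a ratio of 2.22 (2.05 to 2.40). In the control library Blvrb was at 21.9 CPM in cells with Xist and no Y-linked UMI and at 30.6 CPM in cells with a Y-linked UMI, both below the mutant level, and Mt1 was at 18.5 and 17.2 CPM. Another heme oxygenase gene and another biliverdin reductase gene, singled out after their values were seen, lay near a ratio of 1. Hmox2, the constitutive heme oxygenase, was at 91.0 and 93.2 CPM (ratio 1.02, 0.970 to 1.08) and Blvra, the main adult biliverdin reductase, at 23.2 and 23.1 CPM (ratio 0.996, 0.893 to 1.11).

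The NRF2 targets among the 9 genes did not move together. Txnrd1 (ENSMUSG00000020250; chromosome 10, 82833951 to 82897712, plus strand) was at 81.7 CPM in control and 27.3 CPM in mutant cells, a ratio of 0.334 (0.305 to 0.365), while Hmox1 was higher. Nqo1 (ENSMUSG00000003849; chromosome 8, 107388225 to 107403206, minus strand) gave 13 UMIs in 6107 control cells and 3 in 2935 mutant cells, where 3 UMIs are worth 0.0535 and 0.153 CPM, and its direction could not be read at this depth.

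Prdx1 (ENSMUSG00000028691; chromosome 4, 116685544 to 116700822, plus strand) was the most abundant of the 9 in UMIs, at 2082 CPM in control and 1410 CPM in mutant cells, a ratio of 0.677 (0.668 to 0.686). Its partner enzyme Txnrd1, which recharges thioredoxin, was lower as well. Mgst3 (ENSMUSG00000026688; chromosome 1, 167371966 to 167393841, minus strand) was at 46.5 and 40.2 CPM, a ratio of 0.865 (0.798 to 0.937), close to the shift of all genes: the median log2 ratio of the 8539 genes of at least 5 CPM was -0.14, which lies near the -0.21 of Mgst3.

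Selenbp1 (ENSMUSG00000068874; chromosome 3, 94933056 to 94944758, plus strand) had 178 UMIs (3.17 CPM) in control and 1151 UMIs (58.7 CPM) in mutant endothelial-like cells, a ratio of 18.5 (15.8 to 21.8). It was at 13.4 CPM (32 UMIs) in the 147 control hematopoietic-like cells, its highest level in a named control class. Selenbp2, a paralog identical to it at 96% of the last 300 annotated bases, gave 1 and 4 UMIs in endothelial-like cells, and how reads matching both genes were counted is not given in the sources used here. Part of the Selenbp1 signal could therefore belong to Selenbp2 in either library.

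The libraries also differed in S phase genes, of which 19 of 20 were lower in the mutant library, with a median log2 ratio of -0.79 against -0.14 for all genes. Of 20 G2 and M phase genes 8 were higher and 12 lower, with a median of -0.10, near that of all genes. Cells low in cycle genes (1253 control and 1306 mutant endothelial-like cells) were therefore compared on their own. Mt1 was at 13.5 and 77.8 CPM in them, Selenbp1 at 4.31 and 62.3 CPM, Hmox1 at 44.3 and 87.8 CPM, Txnrd1 at 72.8 and 21.5 CPM and Prdx1 at 1851 and 1214 CPM, each in the direction seen over the whole class. Blvrb was at 41.6 and 74.05 CPM, under 2-fold, and Mt2 had too few UMIs to add to the count. Mgst3 moved most, to 79.0 and 42.8 CPM, a log2 ratio of -0.88 in place of -0.21. How far the cycle enters the Mgst3 difference was not tested.

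The level of each gene also varied among clusters of endothelial-like cells. Nearly every cluster came from 1 library: clusters 2, 5 and 6 were mutant and the others control, so cluster and library cannot be told apart. All 9 genes could enter the clustering. Selenbp1 was among the leading genes of clusters 2 and 6 and Mt1 among those of cluster 6, so these levels are a description.

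Control clusters spanned a wide range in Mt1, from 3.34 CPM in cluster 9, led by arterial genes such as Gja5, Bmx and Hey2, to 32.1 CPM in cluster 7. All 3 main mutant clusters lay above that, at 91.9 CPM in cluster 2, 46.9 CPM in cluster 5, led by Sox9 and Esm1, and 105 CPM in cluster 6. Mgst3 was highest, at 150 CPM, in control cluster 9, followed by 73.6 CPM in cluster 8, led by Egfl8, Gja5 and Cxcr4, and 70.4 CPM in cluster 10. The other control clusters of at least 100 cells had 37.4 to 46.9 CPM. In mutant clusters 2, 5 and 6 Mgst3 lay between 38.6 and 44.5 CPM, so none reached the level of control cluster 9.

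Blvrb was highest in control cluster 10, led by Htra3, Apod and Mfsd2a, at 91.6 CPM, above the 86.4 CPM of mutant cluster 5; their intervals overlapped (80.1 to 104 and 76.8 to 96.8). The 2-fold ratio of Blvrb is thus one of the whole class, and 1 control cluster was as high as the mutant ones. Selenbp1 showed no such overlap: the control clusters of at least 100 cells had 0.477 to 8.51 CPM, with the highest in cluster 11, led by Prox1 and Lyve1, and the mutant ones 58.5 to 63.4 CPM. Txnrd1 was at 48.3 to 95.6 CPM in control clusters and at 28.0, 29.2 and 11.8 CPM in mutant clusters 2, 5 and 6. Hmox1 was at 32.4 to 52.3 CPM in the former and at 88.1, 71.6 and 74.9 CPM in the latter.

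**Figure D3:**
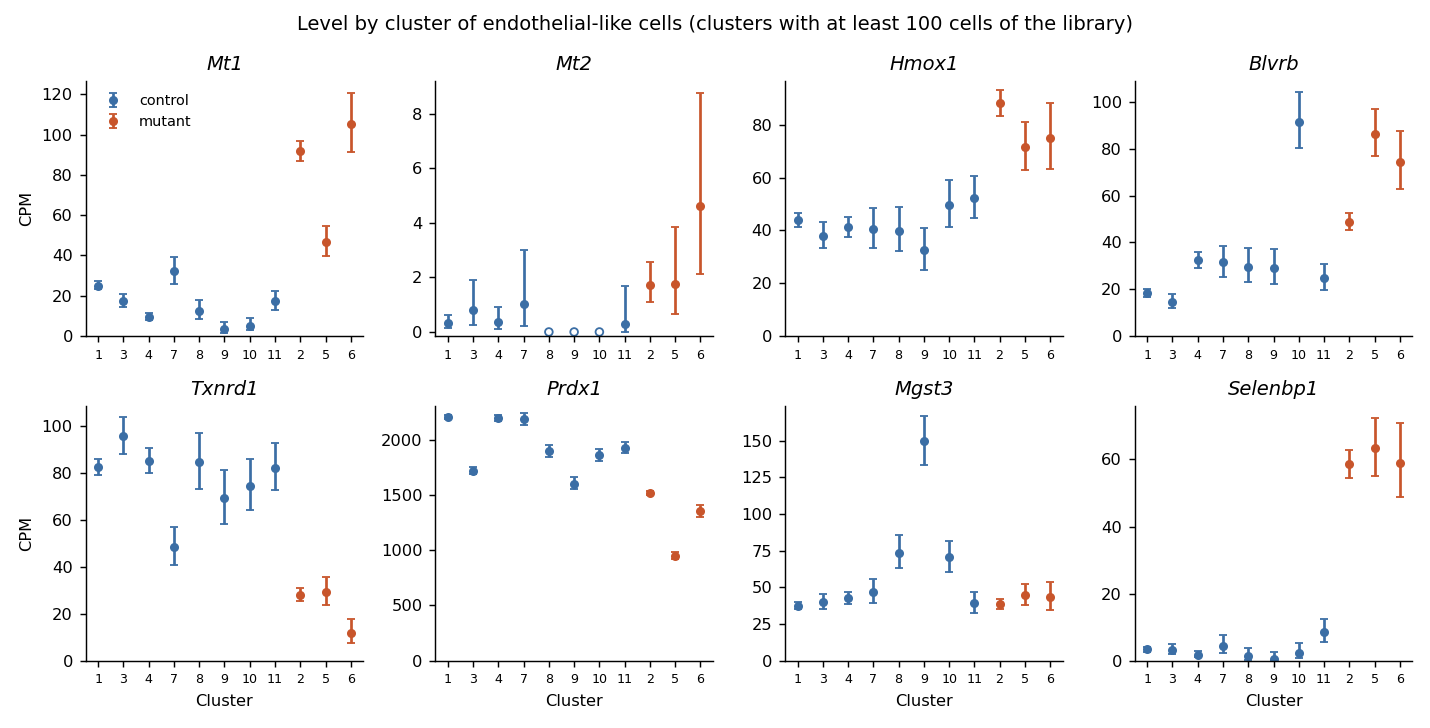
Level in CPM of 8 of the genes in clusters of endothelial-like cells with at least 100 cells of the library, blue for control and orange for mutant, with exact 95% counting intervals; open points mark a cluster with no UMI. Selenbp1, Hmox1 and Mt1 separate the mutant clusters from the control ones, while Blvrb and Mgst3 peak in control clusters 10 and 9.

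Cluster 13 held cells of other lineages in the sort, and it is called by its number because its leading genes were both mesenchymal (Col1a1, Lum) and neural (Tubb3, Crabp1). At a clustering resolution of 1.5 it fell into a mesenchyme-like part of 78 control and 18 mutant cells and a neural-like part of 95 control and 45 mutant cells, so the neural-like part made up 54.9% of its control and 71.4% of its mutant cells. Over the whole cluster Mt1 was at 27.2 and 60.8 CPM, a ratio of 2.24 (1.30 to 3.81), and Hmox1 at 23.4 and 63.2 CPM, a ratio of 2.70 (1.55 to 4.67). Txnrd1 had a ratio of 0.395 (0.203 to 0.706) and Prdx1 0.690 (0.624 to 0.761) there. Blvrb (0.751, 0.300 to 1.66) and Mgst3 (0.9503, 0.568 to 1.53) had intervals that spanned 1.

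With under 50 mutant cells in each part of cluster 13, only levels are given for them. Mt1 was at 36.9 CPM (28 UMIs, 14 of them in 1 cell) in control and 66.4 CPM (14 UMIs) in mutant mesenchyme-like cells. In neural-like cells it was at 14.2 CPM (8 UMIs) and 55.4 CPM (12 UMIs). Prdx1 was at 1655 and 1224 CPM in the former and at 1649 and 1057 CPM in the latter. Whether Tie2Cre acted in these cells is not given in the labels.

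A cluster of 215 mutant cells with no control cells, led by Tagln, Ankrd1 and Acta2 and left unnamed, had Hmox1 at 223 CPM (284 UMIs), above the 71.6 to 88.1 CPM of the mutant endothelial-like clusters 2, 5 and 6. The 284 UMIs were spread over 111 cells, with at most 10 in a cell. Selenbp1 was at 84.9 CPM in this cluster, and Mt1, at 33.01 CPM, was lower than in those clusters. Mt2 was at 9.43 CPM (12 UMIs), and Mt1 over Mt2 was 3.50 (1.81 to 7.30), below the ratios of the endothelial-like class. Summed endothelial markers of this unnamed cluster were 1.10 times the median over clusters, beside 0.809, 1.41 and 0.650 in clusters 2, 5 and 6. With unnamed clusters added to the class, the Hmox1 log2 ratio was 1.11 in place of 0.96, and 5 genes were at least 2-fold higher. In the 10 mutant hematopoietic-like cells Hmox1 gave 62 UMIs, of which 54 came from 1 cell, so that level belongs to that cell. Mt1 gave 43 UMIs and Selenbp1 19 UMIs in these 10 cells, again with 25 and 14 in single cells.

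To compare shares of cells rather than sums, each endothelial-like cell was thinned to 2500 UMIs, leaving 5204 control and 2208 mutant cells (903 and 727 were shallower). Mt1 was then seen in 4.30% (3.77 to 4.89) of control and 15.5% (14.05 to 17.1) of mutant cells, against 13.3% and 29.1% without thinning. Selenbp1 was seen in 0.788% and 13.04%, Hmox1 in 10.1% and 17.9%, Blvrb in 6.36% and 13.4%, and Txnrd1 in 17.5% and 5.43%. Prdx1 was found in 98.4% and 91.8% of cells and Mgst3 in 11.1% and 10.4%. Hbb-y, an embryonic globin that endothelial cells do not make, was seen in 2.90% and 0.543% of the same thinned cells. That is a share that an abundant red-cell transcript reached in cells classed as endothelial-like. The control UMIs of Hbb-y were uneven, with 54 of 266 in 1 cell. Whether they came from free RNA or from doublets was not tested. Mt2 (0.154% and 0.589%) and the control share of Selenbp1 lay below or near the Hbb-y shares and are not read as expression in single cells. The Hbb-y share does not measure free RNA of genes sparse in hemoglobin-rich cells, which held 2 of 218 control Selenbp1 UMIs. For Mt2 the reckoning from hemoglobin gave 18.2% of control and 1.25% of mutant endothelial-like UMIs. Nqo1 was seen in 0 of the 2208 mutant cells, which allows a share of cells with a UMI of up to 0.136% at this depth (3 counts of the total).

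Mt1 was spread less evenly over mutant cells than the other genes of like level. Its variance over mean was 1.45 in thinned mutant cells and 1.06 in control cells, where 1 is the value of pure counting. Hmox1, with nearly the same mean in the mutant cells, had 1.07, and Selenbp1 had 1.24. Before thinning, 59 of the 2935 mutant cells had at least 5 Mt1 UMIs and together held 396 of the 1655, and the highest had 18.

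In thinned endothelial-like cells most pairs given here were seen together about as often as the product of their shares. In thinned mutant cells Mt1 and Selenbp1 were seen together in 2.08% (1.53 to 2.77) of cells, beside 2.03% as the product of their shares. Mt1 and Hmox1 shared 2.54% (1.92 to 3.28) beside a product of 2.79%, and Hmox1 and Selenbp1 2.49% (1.88 to 3.23) beside 2.34%. For Hmox1 and Blvrb it was 1.90% (1.37 to 2.56) beside 2.40% in the mutant library and 0.961% (0.714 to 1.26) beside 0.645% in the control library. Mt1 and Mt2 were seen together in 4 of 2208 mutant cells, 0.181% (0.0494 to 0.463) beside 0.0915%, too few cells to tell these shares apart. Among these thinned pairs, the interval left out the product for Hmox1 and Blvrb in the control library and held it for the rest. Unthinned mutant endothelial-like cells, which differ in depth, gave 0.818% (0.525 to 1.21) for Mt1 and Mt2 beside 0.337%. Mutant cells of all classes (2435 cells) gave 0.411% (0.197 to 0.754) beside 0.144%. Both of these intervals left out the product. The set of all classes pools classes that differ in Mt1 and Mt2 level, among them the 3 hemoglobin-rich cells. Neither share is therefore read as joint detection beyond the product within a class.

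Levels summed over many cells showed more structure. Endothelial-like cells of each library were ordered by the share of their UMIs on 22 hypoxia genes, such as Ndufa4l2, Slc2a3 and Bnip3, none of them among the 9, and cut into 4 groups of equal size, called bins 1 to 4. The median share ran from 0.24% to 0.66% over the control bins and from 0.97% to 1.81% over the mutant ones, so the lowest mutant bin had a higher median than the highest control bin. Summed over these genes, control cells had 4709 CPM, of which Mif gave 1803, Ldha 1040 and Aldoa 557. Mutant cells had 13935 CPM, of which the same genes gave 4305, 2428 and 2048. The order of cells thus rests mostly on these abundant genes and little on Ndufa4l2, Slc2a3 or Bnip3. The bins are ranges of a score, not cell types.

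Mt1 was higher with the hypoxia share in both libraries. In mutant cells it was at 47.8, 75.8, 96.6 and 116 CPM from the lowest to the highest bin, a ratio of 2.43 (2.06 to 2.87) between the ends. Control cells gave 9.93, 15.2, 18.4 and 29.1 CPM, a ratio of 2.94 (2.35 to 3.70). Within control cluster 1 the ratio was 1.85 (1.46 to 2.35) and within mutant cluster 2 it was 2.37 (1.99 to 2.84), so the order was also present inside the largest cluster of each library.

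Selenbp1 was at 32.7, 49.9, 63.4 and 89.9 CPM over the mutant bins, a ratio of 2.75 (2.26 to 3.37), and within mutant clusters 2, 5 and 6 the ratio was 2.41, 2.68 and 3.16. Over the control bins it was at 4.46, 2.98, 2.75 and 2.98 CPM, a ratio of 0.669 (0.429 to 1.04). The Selenbp1 interval spanned 1 in control cells, unlike that of Mt1.

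**Figure D4:**
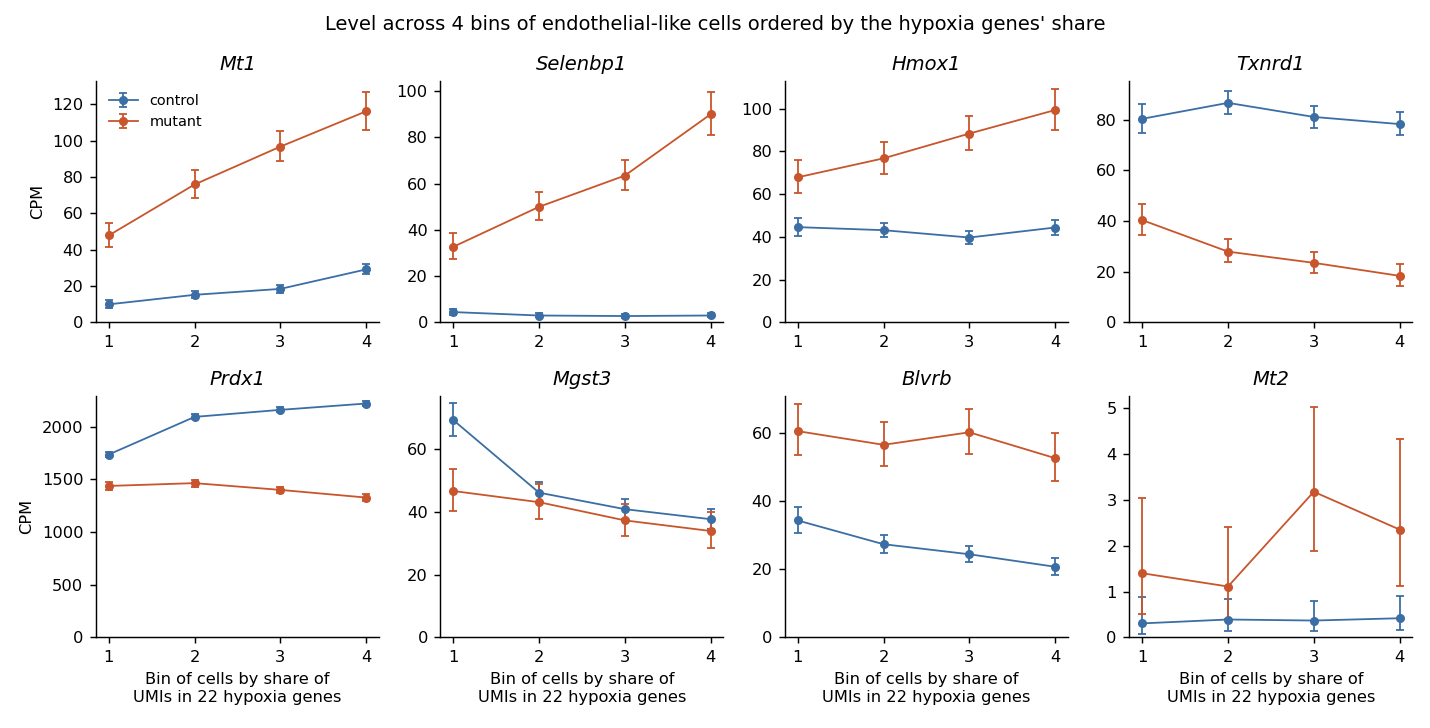
Level in CPM of 8 of the genes across bins of endothelial-like cells ordered from the lowest (1) to the highest (4) share of UMIs on hypoxia genes, blue for control and orange for mutant, with exact 95% counting intervals. Mt1 climbs in both libraries, Selenbp1 and Hmox1 climb in the mutant, and Txnrd1 declines in the mutant.

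Hmox1 had a ratio between the highest and lowest bins of 1.46 (1.26 to 1.71) in mutant cells and 0.996 (0.881 to 1.13) in control cells. Txnrd1 went from 40.4 CPM in the lowest to 18.4 CPM in the highest mutant bin, a ratio of 0.455 (0.344 to 0.598), while in control cells it was at 80.3 and 78.2 CPM, a ratio of 0.974 (0.889 to 1.07). Prdx1 had a ratio of 0.923 (0.890 to 0.957) in mutant and 1.28 (1.26 to 1.30) in control cells. Mgst3 had ratios of 0.727 (0.582 to 0.905) in mutant and 0.544 (0.485 to 0.609) in control cells. Within control cluster 1 the Mgst3 ratio was 0.900 (0.746 to 1.09) and within control cluster 4 it was 0.648 (0.497 to 0.842), both nearer 1 than over the whole class. Mutant clusters 2, 5 and 6 gave 0.671 (0.521 to 0.860), 0.468 (0.256 to 0.834) and 0.956 (0.471 to 1.96). Blvrb gave 0.869 (0.723 to 1.04) in mutant and 0.604 (0.515 to 0.708) in control cells, so Hmox1 and Blvrb did not follow the share in the same way. The median depth of the lowest and highest bins was 4539 and 4636 UMIs in mutant cells but 4966 and 7995 in control cells, and the part of depth in the control ratios was not tested.

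Genes most like each of the 9 across single cells were weakly so. Across the 2208 thinned mutant cells the closest to Mt1 were Pgam1 (Pearson r of 0.12), a glycolysis enzyme, Mif (0.11), a cytokine, and Higd1a (0.10), a mitochondrial protein. Mif and Higd1a are also among the 22 hypoxia genes that ordered the bins, so this likeness and the Mt1 order over bins are not separate observations. Those closest to Selenbp1 were Apoe (0.11), Clec14a (0.098) and Sparcl1 (0.093), and to Hmox1 Ssr4 (0.076), Rhobtb3 (0.072) and Sssca1 (0.071). The closest to Blvrb were Vim, Fxyd6 and Pmepa1 (0.11, 0.11 and 0.10), to Txnrd1 Nup88, Kdm5c and Stmn2 (0.11, 0.088 and 0.087), and to Mgst3 Pafah1b3, Tmsb4x and Clta (0.088, 0.087 and 0.083). Mt2, with 16 thinned UMIs, was closest to Psph, Dnajc3 and Fcf1 (0.090, 0.085 and 0.084), and Nqo1, with no UMI, could not be ranked. Prdx1, which is abundant, reached 0.40 with Ppia, a peptidyl-prolyl isomerase, 0.36 with H2afz, a histone variant, and 0.36 with Erh. These values share library and depth and rest on sparse counts, and are no finding for the rarer genes.

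The genes around the 9 were described from lists, in endothelial-like cells, for members of at least 5 CPM. Over all 8539 genes at that level, 39.2% had a higher CPM in the mutant library, 4.74% were at least 2-fold higher and 6.27% at least 2-fold lower. With the median of all genes at -0.14 on the log2 scale, each list median is read against that value.

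Zinc- and copper-handling genes were split in direction. Of 18 measured, 10 were higher and 8 lower in the mutant library, with a median log2 ratio of 0.11. The highest was Slc30a9, of the zinc transporter family, at 21.95 and 49.0 CPM (ratio 2.23, 2.05 to 2.43), followed by the copper pump Atp7a at 10.1 and 17.2 CPM. Slc39a10, a zinc importer, was at 103 and 56.0 CPM (ratio 0.545), and the copper chaperone Atox1 at 444 and 296 CPM (ratio 0.665). Mt3, a metallothionein best known from the brain, was under 5 CPM and was singled out after its values were seen: in endothelial-like cells the control library gave 68 UMIs of it and the mutant library 1, a ratio of 0.0421 (0.00105 to 0.243), opposite in direction to Mt1 and Mt2. Mt4 gave none in either library.

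NRF2 targets, which exclude the 9 genes here, had 9 of 21 higher and 12 lower with a median of -0.06. Gsta4 (6.77 and 18.8 CPM) and Gstm1 (6.88 and 16.4 CPM), both glutathione transferases, were 2.77-fold and 2.38-fold higher. Gsr, glutathione reductase, was at 50.9 and 21.5 CPM (ratio 0.423), and Idh1, which makes NADPH, at 42.7 and 15.2 CPM (ratio 0.355). Among genes that control NRF2, Nfe2l2, which encodes NRF2, was at 31.4 and 32.3 CPM (ratio 1.03, 0.939 to 1.13), while the small MAF gene Maff (19.4 and 50.9 CPM) and Bach2 (8.30 and 24.4 CPM), of the repressor family that competes at NRF2 sites, were 2.63-fold and 2.94-fold higher. Dpp3 was at 29.6 and 22.8 CPM (ratio 0.769).

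Peroxiredoxins, thioredoxins and superoxide enzymes, without Prdx1 and Txnrd1, had 9 of 21 higher and 12 lower with a median of -0.11 and no gene past 2-fold. Prdx5, the mitochondrial and peroxisomal peroxiredoxin, was at 97.0 and 184 CPM (ratio 1.90, 1.82 to 1.98), against the lower Prdx1, and Sepp1, a secreted selenoprotein, at 158 and 271 CPM. Glrx5, which serves iron-sulfur cluster assembly in mitochondria, was at 256 and 130 CPM (ratio 0.508), and Sod2, the mitochondrial superoxide dismutase, at 106 and 61.9 CPM (ratio 0.586).

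Glutathione enzymes had 13 of 21 higher and 8 lower with a median of 0.33, and 3 were at least 2-fold higher. Gpx3, the secreted glutathione peroxidase, was at 29.0 and 89.0 CPM (ratio 3.07, 2.87 to 3.29). Glo1, glyoxalase, was at 282 and 163 CPM (ratio 0.580). Gsta4, Gstm1, Gsr, Gclc and Gclm stand in both this list and that of NRF2 targets.

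Heme and iron genes, without Hmox1 and Blvrb, had 7 of 22 higher and 15 lower with a median of -0.16. The heme synthesis enzymes Alas1 (12.2 and 5.15 CPM, ratio 0.423) and Alad (81.9 and 36.1 CPM, ratio 0.440) were lower. Slc48a1, a heme transporter, was at 4.08 and 9.79 CPM (ratio 2.40, 1.97 to 2.92), and Bach1, the heme-sensing repressor of Hmox1, at 42.8 and 72.5 CPM (ratio 1.69, 1.59 to 1.81). Hmox1 and its repressor Bach1 were thus both higher in the mutant library.

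**Figure D5:**
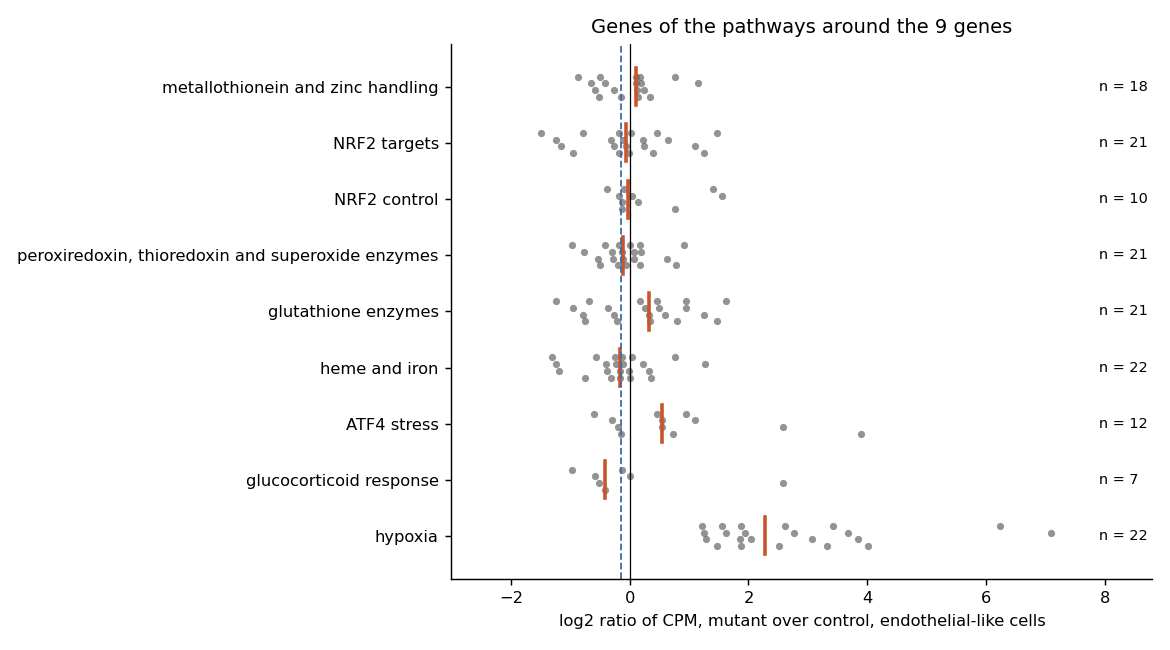
Each grey point is the log2 ratio of a gene's CPM, mutant over control, in endothelial-like cells for genes of at least 5 CPM; orange bars are list medians and the dashed line is the median of all 8539 genes. The antioxidant lists centre near that line, the glutathione list lies above it with a median of 0.33, and all 22 hypoxia genes lie above 0.

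Lists for other stress signals were described in the same way. All 22 hypoxia genes were higher, with a median log2 ratio of 2.27, led by Ndufa4l2 (0.624 and 86.7 CPM) and the glucose transporter Slc2a3 (3.01 and 227 CPM). Stress genes of the ATF4 pathway had 8 of 12 higher and a median of 0.55, with Trib3 at 1.32 and 19.7 CPM and Ddit4 at 7.66 and 46.1 CPM, and Psat1 and Atf5 at ratios of 0.813 and 0.656. Glucocorticoid response genes, of interest since glucocorticoids induce Mt1, had 2 of 7 higher and a median of -0.42. Fkbp5 was at 15.8 and 8.11 CPM and Sgk1 at 205 and 145 CPM, whereas Ddit4, which is in this list too, had a ratio of 6.02 (5.36 to 6.77). The hypoxia and ATF4 lists were chosen with the results of these libraries known and are no independent evidence of direction.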

How the data were processed

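The deposited matrix holds raw UMI counts per gene and cell, made by the authors with Cell Ranger against mm10, per the submitters' processing notes. A deposited cell table gives each cell's genotype, total count and mitochondrial fraction, as the authors computed it, and it ties cells to the 2 samples. It lists 9917 cells in 2 libraries of 60790367 (control) and 21512713 (mutant) UMIs, the shallowest cell having 501, and 5 barcodes occur in both. No source used here says how cells were filtered or doublets treated before deposit, and no doublet caller was run.

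Counts were summed per library and class and divided by the class total (CPM). Levels have exact Poisson intervals, ratios exact conditional binomial intervals and shares exact Clopper-Pearson intervals (95%, counting error only; molecules in 1 library are not independent embryos). Ratios needed 20 UMIs over both sums, list genes a mean of 5 CPM, and log2 ratios had 0.5 UMI added to each sum. Cells were clustered by Leiden (leidenalg 0.10.2, 2000 variable genes, 30 components, 20 neighbours, resolution 1) and named from markers.

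The members and lists were chosen with earlier results of these data known. After a first clustering had put red cells with mutant endothelial cells in an unnamed cluster, cells with at least 5% hemoglobin UMIs were set aside first (no cell lay between 4.46% and 19.8%), and a name was then barred only by 2 leading genes of another class rather than 1. List genes named are up to 4 per list, the highest and lowest by the interval bound nearest 1. For hypoxia only the highest are given, with Bnip3 as an example and Mif, Ldha and Aldoa for their levels. Map3k3, Cdh5, Hbb-y and Selenbp2 were added as checks, and Hmox2, Blvra and Mt3 after their values were seen. Cluster 13 met the naming rule for mesenchyme but is called by number, since its leading genes were mixed. Likeness is Pearson's r of ln(1 + UMIs) among 4673 genes of at least 20 CPM. Ratio intervals and thinning were tested on simulated data. TMM factors came from edgeR 4.0.16.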

Additional observations from a re-analysis of the deposited data

How the results depend on the processing

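No paired analysis was possible because each group is 1 library, and for the same reason no library could be left out. Each log2 ratio kept its sign in the alternatives run for it: Mt1 ran from 1.44 to 2.52, Mt2 from 0.12 to 3.08, Selenbp1 from 3.83 to 4.43, Hmox1 from 0.92 to 1.15, Blvrb from 0.83 to 1.39, Txnrd1 from -1.75 to -1.45, Prdx1 from -0.61 to -0.43 and Mgst3 from -0.88 to -0.08. The lowest Mt2 value came with hemoglobin-rich cells added back, and the lowest Mt1 value over all cells. The count of genes at least 2-fold higher ran from 2 to 5, with 2 both in cells with low cycle scores and, in an alternative chosen after seeing the data, in endothelial-like and hemoglobin-rich cells together; the count at least 2-fold lower was 1 throughout. The NRF2 target median turned to 0.010 with no filter. Another scaling moves every gene alike and leaves a list where it was against the median of all genes (-0.14, and -0.069, -0.071 and -0.0073 with TMM, median-of-ratios scaling and totals without mitochondrial, ribosomal and hemoglobin genes); by this construction the NRF2 target median turned to 0.0094, 0.0074 and 0.071. Under the reduced totals the peroxiredoxin median turned to 0.020, the glutathione median was 0.46 and the zinc median 0.24. In cells with low cycle scores the heme and iron median was -0.37 and the zinc median -0.19, where the median of all genes was -0.24. Thinning gave a zinc median of -0.045, with all genes at -0.18. The zinc median thus changed sign in both but stayed above that of all genes. The share of mutant cells with both Mt1 and Mt2 was 0.040% thinned to 1500 UMIs and 0.818% unthinned, beside products of 0.034% and 0.337%. The cause of the changes with no filter, with thinning and in cells with low cycle scores was not tested. Depth limits Nqo1 and Mt2 most.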
